A study of Mus musculus with 10 samples.

Results

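Spleen and bone marrow of PTPRCA recipients were compared clone by clone in a barcoded mouse leukaemia. The comparison used every DNA barcode that reached 100 CPM, a read count scaled so that every sample adds up to 1000000, in at least 1 of 4 samples, the marrow and spleen at disease of recipients of cells from donor mouse 1 and from donor mouse 2. Of 19704 listed barcodes, 11601 had reads in 1 or more of the 10 samples of the series, and 974 met this rule. Donor 1 gave 484 of them and donor 2 gave 495, with 5 barcodes counted in both. A barcode was read as 1 clone. The 5 highest-ranked barcodes that missed the rule reached 98.8 to 99.5 CPM and the 5 lowest inside it 100.1 to 100.4 CPM.

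All groups shared the same cells, c-Kit-positive haematopoietic progenitors marked with SPLINTR barcode libraries, which the design text of the series calls MLL-AF9 leukaemia. Each donor also gave a baseline sample and marrow and spleen from NSG recipients, a strain without mature lymphocytes of its own, so that 10 samples fell into 5 groups of 2 donors. PTPRCA stands for mice with a variant of Ptprc, the gene of the CD45 antigen, and these recipients have a working immune system. The labels did not give the number or age of the recipients, and did not say whether the marrow and spleen of a donor number came from the same recipient. DNA barcodes carry no expression, so the identity of the sorted cells could not be set against marker genes.

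MLL-AF9 joins the Kmt2a and Mllt3 genes, and the fusion protein keeps progenitor genes active that normal differentiation would switch off. In mice the leukaemia that follows fills the bone marrow, where normal blood formation takes place, and spreads through the blood to the spleen, which keeps blood-forming activity in adult mice. A lentiviral barcode is copied with the genome at each division, so that the share of barcode reads follows the share of cells that descend from a marked cell. A share is relative, and a clone with a lower share in an organ may have fewer cells there or lie among more cells of other clones.

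Each of the 4 PTPRCA samples was the mean of 2 sequenced libraries, as the low CPM values showed, and held 5634747 to 7018103 reads. The CPM that 3 reads make up, the most that a count of 0 allows at 95% confidence, was 0.427 and 0.515 CPM in the marrow of donors 1 and 2 and 0.464 and 0.532 CPM in their spleens. These limits cover counting error only, because amplified reads that carry no molecular identifier do not each stand for a molecule. Most values up to 10000 CPM could be split into the reads of both libraries. In 3 of the 4 samples the libraries held nearly the same clones at the same level, and in the spleen of donor 1 they did not. Over clones of 100 to 10000 CPM, the difference of log2(CPM + 10) between libraries had an SD of 0.30 (392 clones) in donor 1 marrow, 0.17 (389 clones) in donor 2 marrow and 0.21 (396 clones) in donor 2 spleen. In donor 1 spleen the SD was 1.81 (335 clones), and 101 clones were over 4-fold apart between the libraries against 0 in each of the other 3 samples. Where clones could be split, restriction of marrow clones, sharing, 4-fold differences and rank order of donor 1 are therefore also given for each spleen library. These are its deeper library (3635869 reads) and its shallower library (2833979 reads) alone. Levels of some named clones are given in the same way. Donor 1 results by clone size, barcode library, baseline level and comparison with NSG mostly rest on the mean of both libraries. The labels' protocols say that each lysate was divided into technical replicates. Why the 2 libraries of donor 1 spleen differ was not given in the sources used here and was not tested.

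**Figure D1:**
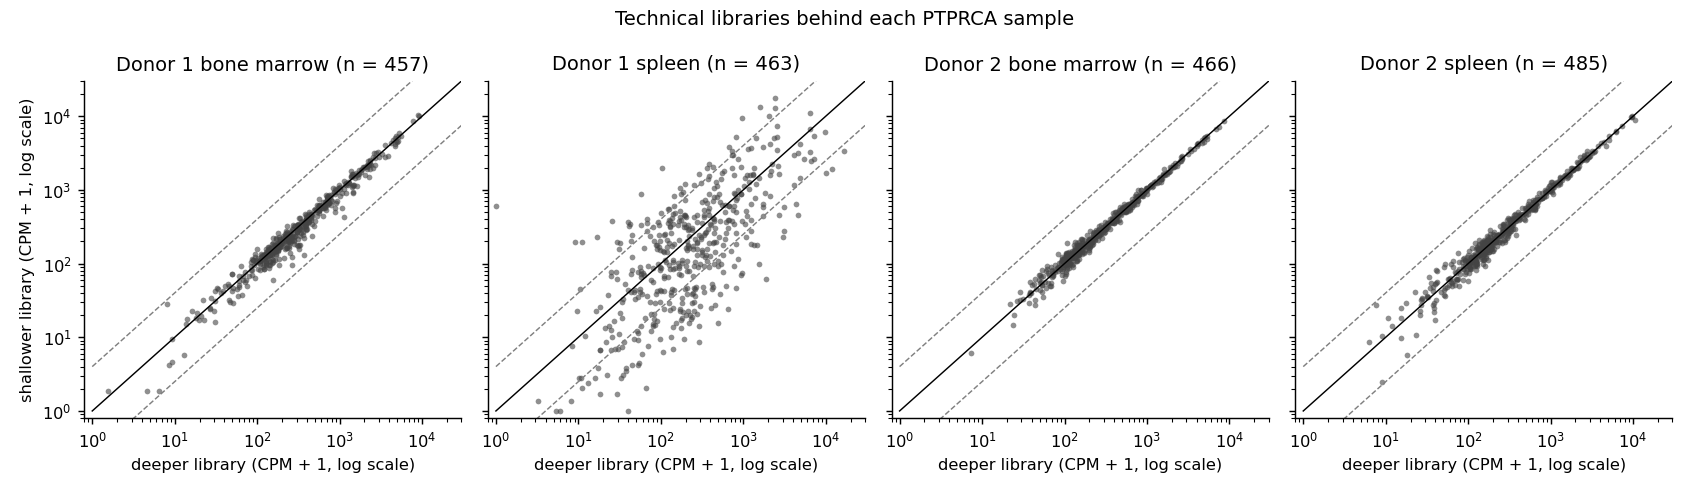
Each point is a clone of 100 CPM or more in at least 1 organ of its donor, plotted by its level in the deeper (x axis) and shallower (y axis) library of a PTPRCA sample, both as CPM + 1 on log scales. The solid line marks equal levels and the dashed lines 4-fold differences. Points of donor 1 spleen scatter past the dashed lines, with an SD of 1.81 log2 over clones of 100 to 10000 CPM, and those of the other 3 samples lie along the solid line, with an SD of 0.17 to 0.30.

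The first question was whether clones were confined to an organ. At 100 CPM or more, no clone was. Of 419 clones at 100 CPM or more in donor 1 marrow, 0 were below 3 reads in spleen, and of 356 such spleen clones 0 were below 3 reads in marrow. In donor 2 the counts were 0 of 418 marrow clones and 0 of 406 spleen clones. All clones that met the rule were counted, and clones of 1 donor are not replicates, so these counts describe these samples only. Over all 1722 and 1736 clones of 100 CPM or more in any sample of donors 1 and 2, the share restricted to 1 organ was 0%. The closest cases, named after their values were seen, still had reads in the other organ. BFP_Barcode_170023 stood at 103.8 CPM in donor 1 marrow and at 1.28 CPM in spleen. In donor 1, mCHERRY_2_Barcode_881135 stood at 0.719 CPM in marrow and at 100.8 CPM in spleen, and its spleen level was 7.98 CPM in the deeper and 193.7 CPM in the shallower library. In donor 2, mCHERRY_2_Barcode_296400 had 107.5 CPM in marrow and 4.73 CPM in spleen, and mCHERRY_2_Barcode_784577 had 5.79 CPM and 113.0 CPM.

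Samples of the same and of the other donor gave 2 backgrounds for this count. In NSG samples of the same donor few of these clones were below 3 reads. For donor 1 they were 16 (3.82%) of the marrow clones in NSG marrow and 32 (8.99%) of the spleen clones in NSG spleen, and for donor 2 they were 10 (2.39%) and 7 (1.72%). At the donor's own baseline 1 of the marrow and 1 of the spleen clones of donor 1 were, and 0 of donor 2. These clones were thus seldom below 3 reads in any sample of their own donor. In the other donor most were. Among the same marrow clones, 411 of 419 (98.1%) of donor 1 were below 3 reads in the marrow of donor 2, and 408 of 418 (97.6%) of donor 2 were below 3 reads in the marrow of donor 1. For spleen clones these counts were 348 of 356 (97.8%) and 401 of 406 (98.8%) in the other donor's spleen. Most clones thus had under 3 reads in samples of the other donor, while each of them had 3 reads or more in the other organ of its own donor. When the spleen of donor 1 was taken from its shallower library alone, 7 of 400 marrow clones were below 3 reads, 3 of them without a read, and from the deeper library alone 0 of 400 were. Carry-over between the marrow and spleen libraries of 1 donor was not tested.

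Most clones of one organ also reached 100 CPM in the other, and these held nearly all reads. In donor 1, 291 of 484 clones (60.1%) reached 100 CPM in both organs, 128 in marrow alone and 65 in spleen alone. In donor 2, 329 of 495 (66.5%) did so, with 89 in marrow alone and 77 in spleen alone. For single spleen libraries of donor 1, only the 463 clones that could be split were used. The share was then taken over those that reached 100 CPM in marrow or in that library. It was 66.6% with the deeper library and 47.8% with the shallower library, so these values rest on another set of clones than the 60.1%. Clones of 100 CPM or more in both organs held 95.2% of marrow and 95.3% of spleen reads in donor 1, and 95.6% and 96.2% in donor 2. The clones that reached 100 CPM in 1 organ alone were mostly small. Those of marrow had a median of 45.3 CPM in spleen in donor 1 and 55.9 CPM in donor 2, and those of spleen had a median of 45.2 and 65.7 CPM in marrow. In donor 1 the highest of the 128 marrow clones reached 780 CPM. The highest of the 65 spleen clones was mCHERRY_2_Barcode_361444 at 6554 CPM.

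**Figure D2:**
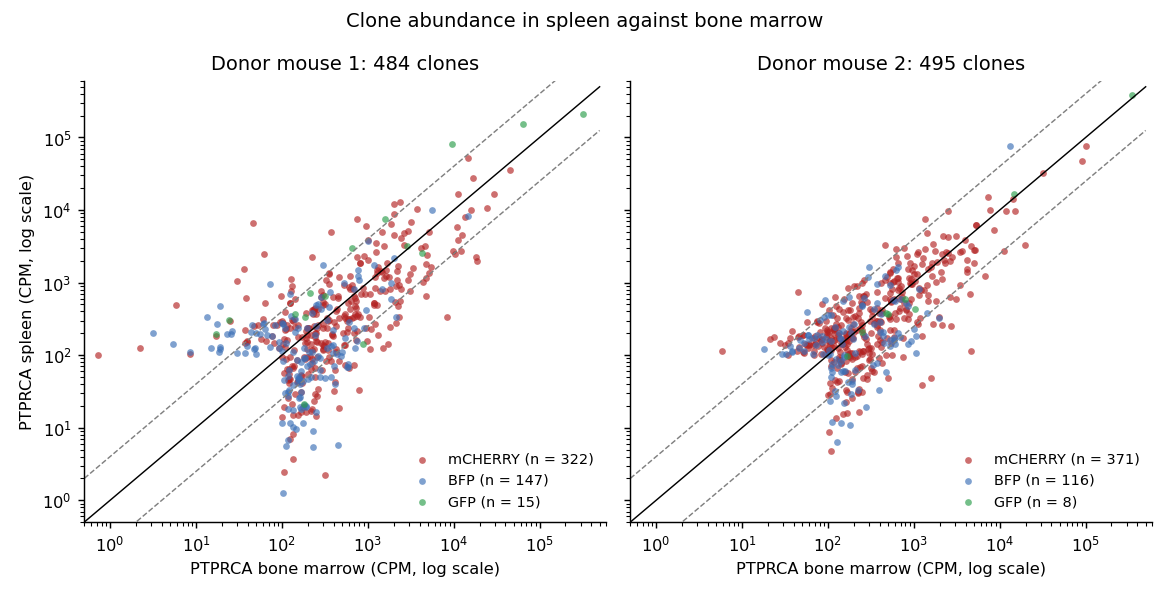
Each point is a clone of donor 1 (left, 484 clones) or donor 2 (right, 495 clones), plotted by its CPM in PTPRCA bone marrow (x axis) and spleen (y axis) on log scales and coloured by barcode library. The solid line marks equal shares and the dashed lines 4-fold differences. The empty lower left corner is set by the rule of 100 CPM, and clones above the rule in 1 organ reach down to 0.719 CPM in the other.

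Although the organs shared their clones, they often differed in how much of each they held. The difference of log2(CPM + 10), spleen minus marrow, had a median of -0.56 in donor 1 (quartiles -1.63 and 0.95) and of -0.0011 in donor 2 (quartiles -1.12 and 0.92). In donor 1, 174 of 484 clones (36.0%) lay within 2-fold and 144 (29.8%) were over 4-fold apart, against 9.18% of the 1722 clones of 100 CPM or more in any sample of the donor. Of these 144, 53 were higher in spleen (11.0% of members against 3.43%) and 91 were higher in marrow (18.8% against 5.75%). In donor 2, 254 of 495 clones (51.3%) lay within 2-fold and 79 (16.0%) were over 4-fold apart, against 5.07% of 1736 clones. Of these 79, 20 were higher in spleen (4.04% against 1.21%) and 59 were higher in marrow (11.9% against 3.86%). The background also counts clones below 100 CPM in both organs, so that the members' larger shares follow from the rule. Relative to the median of -0.56 in donor 1, 81 clones were over 4-fold higher in spleen and 58 in marrow. This centring was added once the values were known, and it turned the side with more clones.

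The spread between organs was larger than that between libraries of 1 organ in donor 2, and in donor 1 it was close to that of the spleen libraries. Over 464 clones of donor 2 that could be split in both organs, the SD of the log2 difference was 1.39 between organs, 0.19 between marrow libraries and 0.26 between spleen libraries. Over 446 clones of donor 1 it was 1.81 between organs, 0.31 between marrow libraries and 1.69 between spleen libraries. With the deeper spleen library alone, donor 1 came close to donor 2. Then 92 of 463 clones (19.9%) were over 4-fold apart, 16 higher in spleen and 76 in marrow. With the shallower library alone 224 of 463 clones (48.4%) were, 59 higher in spleen and 165 in marrow. Clones over 4-fold apart between every marrow and every spleen library numbered 56 of 446 (12.6%) in donor 1 and 52 of 464 (11.2%) in donor 2. Of these, 46 and 39 were higher in marrow and 10 and 13 higher in spleen. In donor 2 the libraries of the organs overlapped for 43 of 464 clones (9.27%), and 205 clones had both spleen libraries above both marrow libraries and 216 the reverse. Technical libraries are not replicate animals, and these counts describe the samples at hand.

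**Figure D3:**
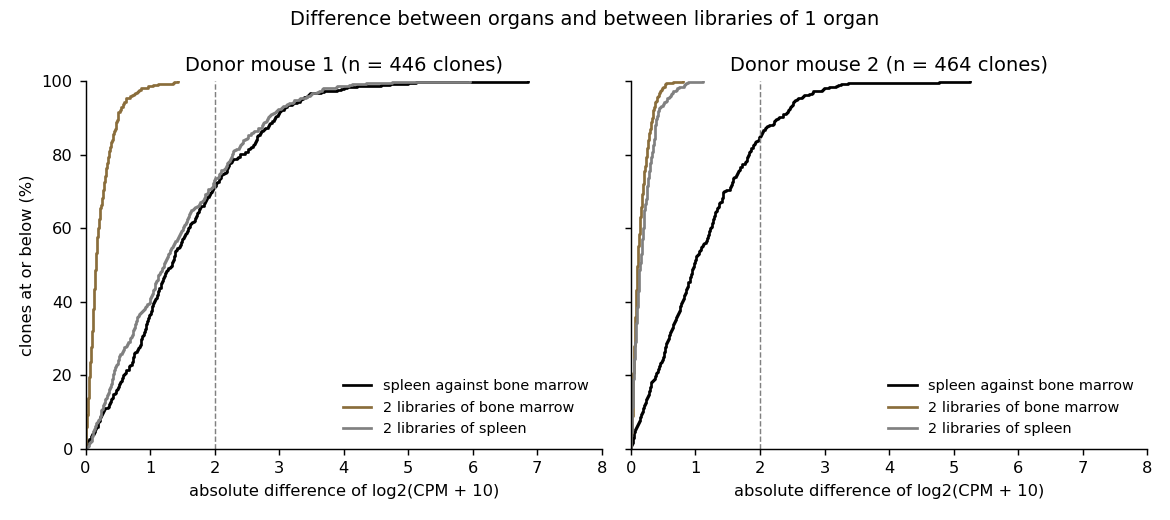
The curves give the percentage of clones (y axis) whose absolute difference of log2(CPM + 10) is at or below the value on the x axis, for spleen against bone marrow and for the 2 libraries of each organ. The dashed line marks a 4-fold difference. In donor 2 both library curves reach 100% before the dashed line, and in donor 1 the curve of the spleen libraries follows that of the organs.

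Differences between organs were not limited to small clones. By mean CPM over the organs, the share of clones over 4-fold apart in donor 1 was 33.2% at 50 to 300 CPM (259 clones), 24.6% at 300 to 1000 CPM (122 clones), 28.1% at 1000 to 10000 CPM (89 clones) and 3 of 14 above that. In donor 2 it was 16.4% (269 clones), 14.5% (138 clones), 16.9% (77 clones) and 2 of 11. Sharing depended on size, as the rule makes it. The share that reached 100 CPM in both organs, from the smallest class to the largest, was 30.9%, 90.2%, 97.8% and 100% in donor 1, and 40.5%, 95.7%, 100% and 100% in donor 2.

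Rank order was kept in part. Spearman's rho between marrow and spleen was 0.57 over the 484 clones of donor 1 and 0.62 over the 495 of donor 2, across clones that share the same libraries. With the deeper and the shallower spleen library of donor 1 it was 0.66 and 0.35, over the 463 clones that could be split. Among clones with a mean of 1000 CPM or more, rho was 0.30 in donor 1 (103 clones) and 0.43 in donor 2 (88 clones). Choosing clones by the values that are compared leaves out those low in both organs, which by itself lowers rho. These values therefore do not show that large clones kept their order less. Of the 10 largest clones of each organ, 5 were shared in donor 1 and 7 in donor 2. Of the 50 largest, 32 and 35 were.

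The same clone led all 4 samples. GFP_Barcode_52804 held 32.1% of marrow and 21.1% of spleen reads in donor 1, and 34.8% and 39.1% in donor 2. Its share was lower in the spleen in donor 1 and higher in donor 2, so the direction was opposite in the donors. The clones next in size followed. In donor 1, GFP_Barcode_52357 kept rank 2 with 6.35% of marrow and 15.4% of spleen reads. GFP_Barcode_98919 held 0.965% and rank 20 in marrow against 8.23% and rank 3 in spleen, 8.52-fold higher. mCHERRY_2_Barcode_162583 held 1.45% and rank 11 against 5.14% and rank 4. mCHERRY_2_Barcode_8041 differed little, with 4.49% of marrow and 3.55% of spleen reads at ranks 3 and 5. Values above 10000 CPM were not split, so the level of these leading clones in each spleen library of donor 1 is not known.

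In donor 2, mCHERRY_2_Barcode_187286 held rank 2 in both organs, at 10.2% of marrow and 7.65% of spleen reads. mCHERRY_2_Barcode_311488 held 9.09% and 4.73%, ranks 3 and 4, a 1.92-fold lower share in spleen. mCHERRY_2_Barcode_96127 was the most even of the 5 largest, with 3.17% of marrow and 3.23% of spleen reads. BFP_Barcode_97773 was the exception among them. It held 1.32% and rank 9 in marrow against 7.54% and rank 3 in spleen, 5.73-fold higher.

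**Figure D4:**
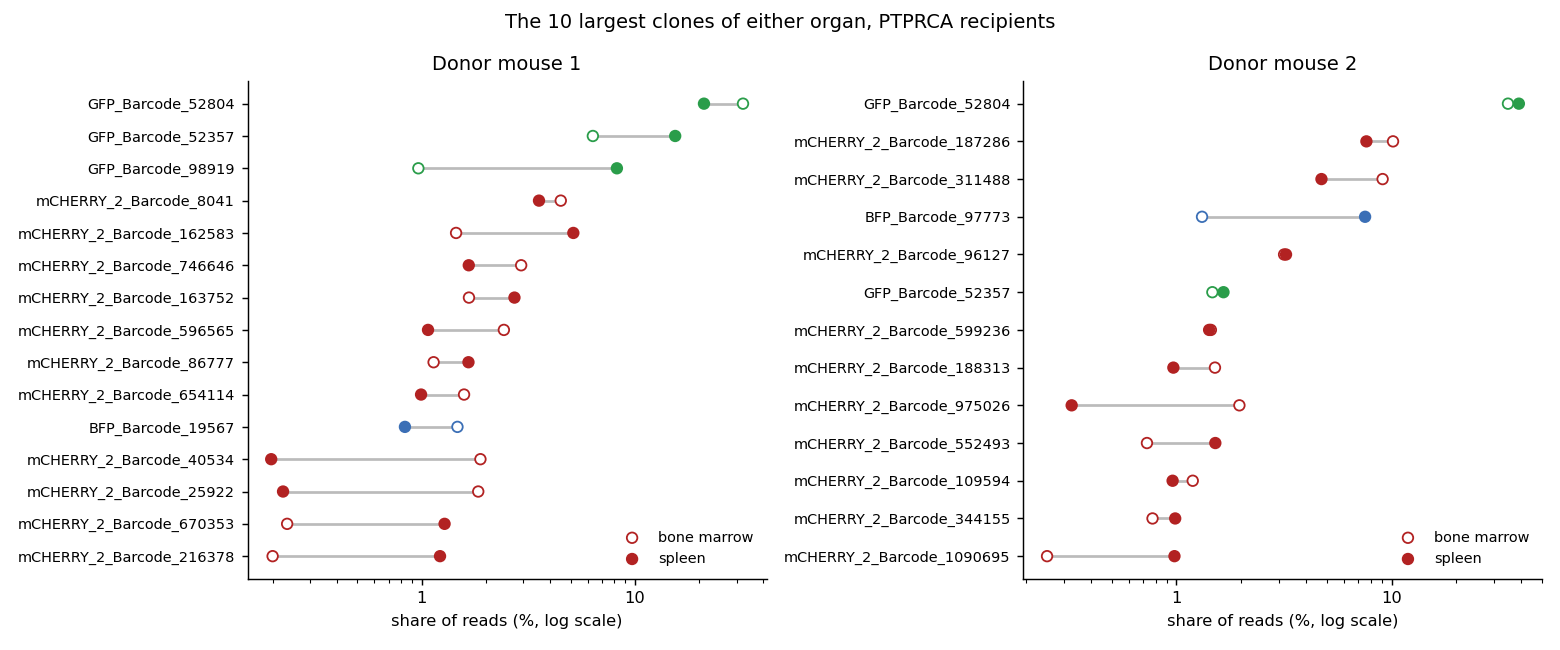
Each row is a clone among the 10 largest of either PTPRCA organ in donor 1 (left) or donor 2 (right), ordered by mean share, with its share of reads on a log axis in bone marrow (open circle) and spleen (filled circle). Circles are blue for BFP, green for GFP and red for mCHERRY barcodes. GFP_Barcode_52804 leads in all 4 samples, and BFP_Barcode_97773 of donor 2 lies at 1.32% in marrow and 7.54% in spleen.

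Few clones made up the bulk of the change. The share of reads that would have to move between clones to turn the marrow of donor 1 into its spleen was 37.4 percentage points, and 21.4 points in donor 2. In each donor 3 clones accounted for most of the gain, 53.6% in donor 1 (GFP_Barcode_52357 with 9.09, GFP_Barcode_98919 with 7.26 and mCHERRY_2_Barcode_162583 with 3.69 points) and 52.8% in donor 2. There the gain lay in BFP_Barcode_97773 with 6.22 and GFP_Barcode_52804 with 4.29 points, followed by mCHERRY_2_Barcode_552493 with 0.787 points. The loss was spread over more clones, and 7 clones were needed to reach the midpoint of it in either donor. In donor 1 the largest loss was that of GFP_Barcode_52804 with -11.03 points. In donor 2 it was that of mCHERRY_2_Barcode_311488 with -4.37 points, followed by mCHERRY_2_Barcode_187286 with -2.52. In the NSG recipients of the same donors, 23.2% and 31.1% of the gain lay in 3 clones.

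The 4 clones furthest apart in each direction in donor 1, among those of 1000 CPM or more in either organ, were all mCHERRY clones. That library also gave most donor 1 clones that met the rule, 322 against 147 BFP and 15 GFP clones. Over 4-fold higher in spleen were 9.01% of these mCHERRY, 12.9% of BFP and 33.3% of GFP clones. Over 4-fold higher in marrow were 16.8%, 23.8% and 13.3%. The mix of libraries among clones of 1000 CPM or more was not counted. Of the 4 on the spleen side, mCHERRY_2_Barcode_361444 was furthest apart, at 46.5 CPM in marrow and 6554 CPM in spleen, 141-fold higher. It was high in both spleen libraries (6437 and 6671 CPM) and low in both marrow libraries (44.8 and 48.3 CPM). mCHERRY_2_Barcode_164271 stood at 61.4 CPM in marrow and 2486 CPM in spleen, with 1242 and 3730 CPM in the deeper and shallower spleen library. mCHERRY_2_Barcode_408218 stood at 35.9 and 1540 CPM. mCHERRY_2_Barcode_358673 stood at 29.6 and 1036 CPM, but its spleen level was 102.6 CPM in the deeper and 1969 CPM in the shallower library, so that its size rests on the latter.

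Higher in donor 1 marrow were mCHERRY_2_Barcode_115191, mCHERRY_2_Barcode_766225, mCHERRY_2_Barcode_306829 and mCHERRY_2_Barcode_40534. mCHERRY_2_Barcode_115191 stood at 8254 CPM and rank 21 in marrow and at 335 CPM and rank 188 in spleen, 24.7-fold lower, and its spleen libraries gave 311 and 358 CPM. mCHERRY_2_Barcode_766225 had 1504 CPM in marrow and 126 CPM in spleen (libraries at 109.7 and 142.9 CPM). mCHERRY_2_Barcode_306829 had 1701 and 144.5 CPM. mCHERRY_2_Barcode_40534, the sixth largest clone of the marrow, held 1.89% there and 0.197% in spleen, 9.57-fold lower, with 2157 and 1787 CPM in the spleen libraries. These 4 differences were present in each spleen library.

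In donor 2, among clones of 1000 CPM or more in either organ, the widest differences lay on the marrow side. mCHERRY_2_Barcode_512882 stood at 4693 CPM and rank 21 in marrow and at 113 CPM and rank 379 in spleen, 41.4-fold lower. Its libraries read 4882 and 4504 CPM in marrow and 122 and 104.2 CPM in spleen. mCHERRY_2_Barcode_227392 had 1586 and 48.2 CPM, mCHERRY_2_Barcode_38317 had 1242 and 38.9 CPM, and mCHERRY_2_Barcode_357761 had 2677 and 250.8 CPM. The 4 named on the spleen side were 5.48-fold to 7.17-fold higher there. A clone below that size, mCHERRY_2_Barcode_91656, chosen after its values were seen, stood further apart, at 44.5 CPM in marrow and 735 CPM in spleen. mCHERRY_2_Barcode_835296 had 462 CPM in marrow and 3314 CPM in spleen. BFP_Barcode_97773 came next on the log2 scale, ahead of mCHERRY_2_Barcode_428625 (1349 and 7421 CPM) and BFP_Barcode_14569 (302 and 1655 CPM).

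Barcodes with 100 CPM or more in PTPRCA samples of both donors were 5, all from the GFP library. Whether such a barcode marks cells of 1 origin or separate cells with the same barcode was not tested. None of the 5 was over 4-fold apart between the organs in the same direction in both donors. GFP_Barcode_3138 was lower in spleen in both, at 4324 and 2557 CPM in donor 1 and at 166 and 96.4 CPM in donor 2, 1.69-fold and 1.73-fold lower. In donor 1 this rests on the shallower spleen library (456 CPM), since the deeper one, at 4657 CPM, lay within the marrow libraries (3953 and 4696 CPM). GFP_Barcode_52357 was higher in spleen in both, 2.43-fold in donor 1 and 1.13-fold in donor 2, where marrow held 1.47% and spleen 1.66%. GFP_Barcode_69276 was 4.65-fold higher in spleen in donor 1 (1604 and 7461 CPM) and 2.44-fold lower in donor 2 (1043 and 428 CPM). The spleen libraries of donor 1 put it at 1602 CPM in the deeper and 13321 CPM in the shallower, so that only the shallower library put it above its marrow level by more than 4-fold. GFP_Barcode_18532 had 24.3 CPM in marrow and 305 CPM in spleen of donor 1, where the deeper spleen library had 0 reads of it and the shallower library 610 CPM. In donor 2 it had 475 and 386 CPM. GFP_Barcode_52804, given above, is the fifth.

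By barcode library, GFP clones held more and mCHERRY clones less of the spleen than of the marrow in both donors. The GFP share was 40.6% of marrow and 46.6% of spleen reads in donor 1 and 36.6% and 41.0% in donor 2. Single clones made up these differences. In donor 2 GFP_Barcode_52804 alone gained 4.29 points, and the 8 GFP clones had a median log2 difference of -0.35, lower in spleen. In donor 1 GFP_Barcode_52357 and GFP_Barcode_98919 gained 9.09 and 7.26 points and GFP_Barcode_52804 differed by -11.03 points. The mCHERRY share was 52.2% and 47.0% in donor 1 and 57.8% and 47.7% in donor 2. For either share, the two-sided exact permutation test that exchanges the organs within the 2 donors gave p = 0.5, the smallest it allows. The BFP share differed in opposite directions, with 7.26% of marrow and 6.39% of spleen reads in donor 1 and 5.59% and 11.4% in donor 2, where BFP_Barcode_97773 made up 1.32% and 7.54%. Sharing also differed by library. In donor 1, 52 of 147 BFP clones (35.4%), 227 of 322 mCHERRY clones (70.5%) and 12 of 15 GFP clones reached 100 CPM in both organs. In donor 2, 61 of 116 BFP clones (52.6%), 261 of 371 mCHERRY clones (70.4%) and 7 of 8 GFP clones did. Clones were not matched for size, on which sharing depends by the rule. In NSG, 46.7% and 28.1% of BFP clones, 71.8% and 67.0% of mCHERRY clones and 53.8% and 37.5% of GFP clones of donors 1 and 2 were shared. The mCHERRY share of reads was lower in spleen in NSG too, with 43.7% of marrow and 42.6% of spleen reads in donor 1 and 56.8% and 51.3% in donor 2. The GFP share of reads in NSG was 36.5% and 35.4% in donor 1 and 37.9% and 42.6% in donor 2, opposite in the donors.

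How evenness compared between the organs depended on the measure and on the largest clone. The effective number (how many equally large clones would have the same Shannon entropy) was 48.9 in marrow and 46.1 in spleen of donor 1, and 35.7 and 30.6 in donor 2. Spleen was lower in 2 of 2 donors, by a mean log2 ratio of -0.15 ± 0.096 (SD, n = 2; two-sided exact permutation test, p = 0.5, the smallest possible). It was also lower in NSG spleen, with 78.4 in marrow and 76.2 in spleen of donor 1, and 56.9 and 46.3 in donor 2. The inverse Simpson number, in which large clones count more, gave the opposite sign in donor 1, with 8.77 in marrow and 12.2 in spleen, and 7.00 and 5.91 in donor 2. With the largest clone of each sample left out the effective number of donor 1 was 122 in marrow and 66.8 in spleen, and that of donor 2 was 89.2 and 91.7. The inverse Simpson number without it was 42.0 and 16.6 in donor 1, and 19.5 and 22.6 in donor 2. These measures need the largest clones and could not be taken for the spleen libraries of donor 1 alone. Pielou's evenness, which divides the entropy by its maximum for the number of clones seen, was 0.508 and 0.504 in donor 1 and 0.450 and 0.436 in donor 2.

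Fewer clones passed each size in spleen. Clones of 100 CPM or more numbered 419 in marrow and 356 in spleen in donor 1, and 418 and 406 in donor 2. Clones of 1% of reads or more (10000 CPM) numbered 18 and 12 in donor 1 and 11 and 8 in donor 2. The 10 largest clones held 56.7% of marrow and 61.96% of spleen reads in donor 1, and 66.1% and 68.8% in donor 2. It took 130 clones to make up 90% of the marrow of donor 1 and 105 for its spleen, and 129 and 114 in donor 2. Each of these 4 measures differed in the same direction in both donors, and each exact permutation p was 0.5, the smallest possible. For the counts at 100 and 10000 CPM and the clones that make up 90%, the direction was not particular to PTPRCA. At 1000 CPM the NSG counts went the other way, as given further below. In NSG marrow and spleen, clones of 100 CPM or more numbered 571 and 522 in donor 1, and 561 and 525 in donor 2. Clones of 10000 CPM or more numbered 14 and 9, and 10 and 7. It took 253 and 215, and 231 and 213 clones to make up 90%. The share of the 10 largest was 49.7% and 48.9%, and 56.7% and 57.9%, opposite in the donors.

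**Figure D5:**
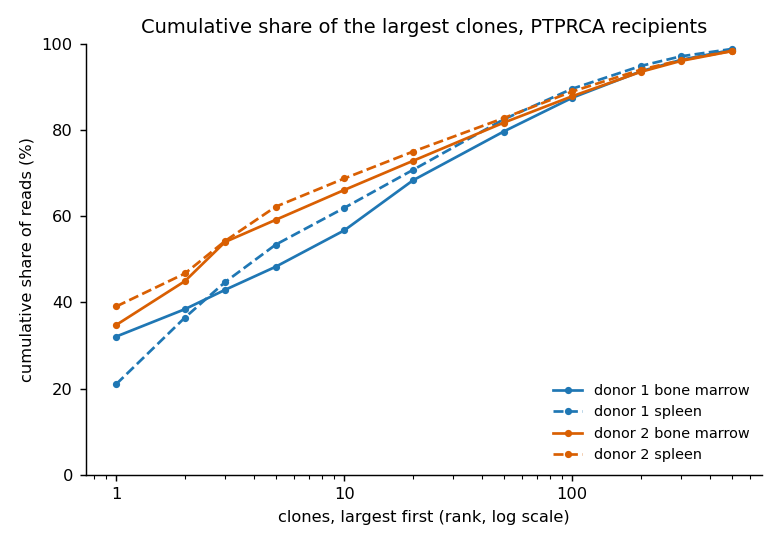
The lines give the cumulative share of reads (y axis) held by the largest clones, at 11 ranks between 1 and 500 (x axis, log scale), in bone marrow (solid) and spleen (dashed) of donor 1 (blue) and donor 2 (orange). At rank 10 the spleen lies above the marrow in both donors, at 61.96% against 56.7% and at 68.8% against 66.1%, while at rank 1 the spleen of donor 1 lies below its marrow.

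Nearly all members had been seen at baseline. At 100 CPM or more at baseline were 208 of 484 clones in donor 1 and 284 of 495 in donor 2, and 2 and 0 were below 3 reads. Median baseline levels were lower for clones over 4-fold apart than for clones within 2-fold, by little on the spleen side of donor 1. In donor 2 the baseline median was 158.8 CPM for clones within 2-fold, 54.9 CPM for those over 4-fold higher in spleen and 75.9 CPM for those over 4-fold higher in marrow. In donor 1 it was 103.1 CPM within 2-fold and 48.8 CPM for those higher in marrow, and 96.1 CPM for those higher in spleen. These medians were not tested. Spearman's rho between baseline and disease was 0.18 for marrow and 0.31 for spleen in donor 1 and 0.27 for both organs in donor 2, across clones.

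The spleen-to-marrow difference of a clone in PTPRCA recipients was nearly uncorrelated with its difference in NSG recipients of the same donor, which are separate samples. Pearson's r between the differences was 0.0089 in donor 1 and 0.0064 in donor 2, across 484 and 495 clones. Over clones that also reached 100 CPM in NSG it was 0.097 (320 clones) and -0.016 (346 clones). Of the 53 clones of donor 1 over 4-fold higher in PTPRCA spleen, 16 were higher in spleen and 32 higher in marrow in NSG, and of the 91 higher in PTPRCA marrow, 34 and 54. In donor 2 these counts were 11 and 9 of 20 clones, and 31 and 28 of 59. For comparison, clones within 2-fold in PTPRCA split 81 to 89 between NSG spleen and marrow in donor 1, and 125 to 126 in donor 2. Of the 174 such clones of donor 1, 11 were over 4-fold higher in NSG spleen and 10 in NSG marrow. The median NSG log2 difference over all members was -0.16 in donor 1 and -0.015 in donor 2. Among clones apart in every library of donor 1, the 10 of spleen split 3 to 6 between spleen and marrow in NSG, and the 46 of marrow split 16 to 29, with 0 over 4-fold on the spleen side and 6 on the marrow side. In donor 2 the 13 of spleen split 7 to 6 and the 39 of marrow 22 to 17. Named clones went either way. In donor 2, mCHERRY_2_Barcode_512882, 41.4-fold lower in spleen than in marrow of PTPRCA recipients, stood at 281 CPM in NSG marrow and 904 CPM in NSG spleen. mCHERRY_2_Barcode_835296, higher in PTPRCA spleen, was also higher in NSG spleen, at 152 CPM in NSG marrow and 1930 CPM in NSG spleen.

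Across donors, no clone could be called between the organs. limma on log2(CPM + 10) over 3443 clones, those of 100 CPM or more in any of the 10 samples, called 0 clones (0% of those tested) at a Benjamini-Hochberg adjusted p below 0.05, with 0 at an unadjusted p below 0.05. A donor block gave 0 calls and 2 clones with an unadjusted p below 0.05, and a block of donor and strain gave the same counts. All but 5 of the 974 members reached 100 CPM in 1 donor alone, so that for them the design holds 1 marrow and 1 spleen sample and no replicate. Without a donor block, the fit also pools its spread over all clones tested, and clones of 1 donor alone add the gap between donors to it. The 0 calls therefore say little about any clone, those that both donors hold included.

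The same measures were taken in NSG recipients, where the libraries of 2 samples could be compared. Their SD was 0.95 in donor 1 marrow, with 21 of 546 clones over 4-fold apart, and 0.061 in donor 2 spleen, with 0 of 511. The libraries of the other NSG samples were not compared. NSG members numbered 693 in donor 1 and 699 in donor 2. Clones of 100 CPM or more in both organs made up 60.1% and 66.5% in PTPRCA and 57.7% and 55.4% in NSG. Restricted clones were 0 in PTPRCA. In NSG, 3 of 571 marrow clones and 11 of 522 spleen clones of donor 1, and 2 of 561 and 3 of 525 of donor 2, were below 3 reads in the other organ (0.813% and 0.288% of 1722 and 1736 clones). The share over 4-fold apart was 29.8% and 16.0% in PTPRCA and 31.5% and 31.0% in NSG, where the background was 14.3% and 13.9%, with differences of -1.71 and -15.1 percentage points in donors 1 and 2. In NSG, 91 clones of donor 1 were higher in spleen (background 5.52%) and 127 in marrow (8.83%), and in donor 2 these were 91 (5.41%) and 126 (8.53%). Bray-Curtis similarity, the share of reads common to both organs, was 62.6% and 78.6% in PTPRCA and 69.99% and 78.8% in NSG. Without GFP_Barcode_52804 it was 56.8% and 69.8% in PTPRCA and 56.8% and 70.0% in NSG, so that the strains then lay close together in each donor. Between the 2 donors of PTPRCA it was 2.48% for the marrows and 2.89% for the spleens without that clone. Exchanging strains within donors gave an exact permutation p of 0.5, the smallest possible, for sharing, restricted clones, the share over 4-fold apart and Bray-Curtis similarity. A limma test of the interaction between strain and organ gave 0 calls among 3443 clones (0%) and 0 unadjusted p below 0.05. Adding a donor block gave 0 calls and 4 unadjusted p below 0.05. These 0 calls carry the same limit as those between the organs.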

How the data were processed

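Per the labels' protocols, viable cells were sorted and lysed, each lysate was divided into technical replicates, and PCR in 2 rounds made the barcode libraries. Bowtie 1.2.2 and R 3.6 are named in the submitters' processing notes. For the barcode reference and filters, the sources used here name none. The authors deposited CPM values, 1 column per sample, each summing to 1000000, with 0 columns of other samples. Columns were matched to samples by donor, strain and tissue.

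Low values were whole multiples of 2 steps per PTPRCA column, which gave the read totals of both libraries, with recovered reads at most 0.00834 from whole numbers. Values up to 10000 CPM were split into whole reads where 1 solution existed. No single step gave whole reads, so no count model was run.

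limma 3.58.1 (R 4.3.3, lmFit and eBayes with a trend) was run on log2(CPM + 10) over all 10 samples, 1 mean per group. This scale understates changes of rare clones. Other values were computed in Python 3.11.15 with scipy 1.17.1. The limma and splitting steps were checked on simulated data. The limma simulation held no gap between donors, so it does not cover clones of 1 donor alone. The labels tie samples of a number to 1 donor mouse, and the deviations of such samples correlated at 0.944 between the organs (3443 clones). Whether donors or recipients are separate experiments is not stated, so p-values measure the spread between these samples.

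Named clones were, per donor, the 5 largest, the 4 furthest apart per direction at 1000 CPM or more in an organ, up to 3 restricted per organ (none existed), up to 5 shared by both donors and up to 5 limma calls per direction (none existed). Clones with the lowest level in the other organ, mCHERRY_2_Barcode_552493, mCHERRY_2_Barcode_91656 and library-level comparisons were added after values were seen. Members, lists and tests were chosen with earlier results of these data known. Wilson 95% intervals on the largest clone's share were at most 0.0403 percentage points on either side. Alternatives covered pseudocounts, filters, floors, similarity and diversity measures, donor blocks, technical libraries and each donor left out.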

Additional observations from a re-analysis of the deposited data

Results flagged for a closer look

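Clones of 1000 CPM or more were fewer in spleen than in marrow in both donors of PTPRCA recipients and more numerous in spleen in both donors of NSG recipients. In PTPRCA they numbered 101 in marrow and 93 in spleen of donor 1, and 89 and 86 in donor 2. In NSG they numbered 123 and 137 in donor 1, and 119 and 121 in donor 2. Clone counts, diversity measures, shares and the barcodes of both donors were scanned for such opposite directions, and this was the only item flagged. At limits of 100 and 10000 CPM, clones were fewer in spleen than in marrow in both donors of either strain. The mean log2 ratio of spleen over marrow, PTPRCA minus NSG, was -0.17. The exact permutation test that exchanges strains within the 2 donors gave p = 0.5, the smallest it allows, so the difference could not be tested at 0.05.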

How the results depend on the processing

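With 2 donors no exact test could pass 0.05, and values over donors are means of 2. Of members, 63.3% reached the limit in both organs, against 68.8%, 57.5% and 53.0% with a limit of 50, 500 and 1000 CPM, 57.1% with the shallower donor 1 spleen library, and 60.1% to 66.5% with a donor left out. Marrow-restricted clones made up 0%, against 0.0942% at 50 CPM, 1.79% where restricted meant below 10 CPM, and 0.875% with the shallower library, and 0% to 0% with a donor left out. Spleen-restricted clones made up 0%, against 1.11% below 10 CPM and 0% to 0%. Clones over 4-fold apart made up 22.9%, against 7.28% with a pseudocount of 100 CPM, 56.4% over 2-fold, 5.86% over 8-fold, 11.9% between every pair of libraries, and 16.0% to 29.8%. Spearman's rho was 0.59, against 0.65, 0.49 and 0.40 at 50, 500 and 1000 CPM, 0.69 as Pearson's r, 0.64 and 0.49 with the deeper and shallower library, and 0.57 to 0.62. Bray-Curtis similarity was 70.6%, against 91.8% as cosine similarity, and 62.6% to 78.6%. The log2 effective number ratio was -0.15, reversed to 0.12 as inverse Simpson, and -0.22 to -0.085. Its strain difference was 0.017, reversed to -0.45 without the largest clone, and -0.046 to 0.079. With donor as a replicate block limma called 0 clones, and the block changed no call. Library settings were chosen after seeing the data and cover only clones that could be split. The reasons for these shifts were not tested.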
